A study of Mus musculus with 10 samples.

Results

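The mouse genes for the subunits of oxidative phosphorylation (OXPHOS) were followed across muscle and a muscle cell line that carry an activatable form of the stress kinase PERK. Members were the gene probes whose RefSeq accession mapped to a symbol beginning with Ndufa, Ndufb, Ndufc, Ndufs or Ndufv (Ndufaf assembly factors left out), to Sdha, Sdhb, Sdhc or Sdhd, to Cyc1, or to a symbol beginning with Uqcr, Cox4i, Cox5, Cox6, Cox7, Cox8 or Atp5. This rule found 85 genes among the 19752 named genes of the array, on 114 of its 55681 gene probes. By symbol, 38 belong to complex I, 4 to complex II, 9 to complex III, 18 to complex IV and 16 to complex V. Ndufa4 was kept under complex I by its name, although its protein has been assigned to complex IV.

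OXPHOS takes place in the inner mitochondrial membrane. Complex I (NADH dehydrogenase) and complex II (succinate dehydrogenase) pass electrons to coenzyme Q, complex III (the cytochrome bc1 complex) passes them to cytochrome c, and complex IV (cytochrome c oxidase) passes them to oxygen, while complex V (ATP synthase) uses the resulting proton gradient to make ATP. All members are nuclear genes, and some complex IV subunits exist as a form of heart and skeletal muscle and a form of other tissues. Cox6a2, Cox7a1 and Cox8b are the muscle isoforms and Cox6a1, Cox7a2 and Cox8a their widely expressed paralogs.

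The arrays form 5 groups of 2. Transgenic hSA::Fv2E-PERK (TG) muscle was taken 12 h after an intraperitoneal injection of AP20187 at 1 ng per g of body weight, or 12 h after vehicle, and wild type (WT) muscle came from mice given no treatment, so that TG vehicle and WT mice differ by injection as well as by transgene. All mice were male C57BL/6J. Cells of the C2C12 line carrying Fv2E-PERK were differentiated for 3 days and then exposed to 100 nM AP20187, or to vehicle, for 12 h. AP20187 joins Fv2E domains in pairs and so activates the attached PERK kinase, and hSA names a skeletal actin promoter, which drives the fusion in muscle fibres. The age of the mice, the muscle sampled, the number of transgenic lines and whether C2C12 Fv2E-PERK is a single clone are not given in the sources used here. The labels also do not say that replicates came from separate animals or cultures, so that p-values measure the spread between these samples.

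Between 41.0% and 53.1% of gene spots stood well above background on each array. The WT arrays were scanned in session 1, the 4 TG muscle arrays in session 2 and the 4 C2C12 arrays in session 3. AP20187 and vehicle were therefore compared within a session in both systems, whereas session and group cannot be told apart when TG muscle is set against WT muscle or against C2C12. Fast fibre markers such as Myh4 and Pvalb were expressed in all muscle groups, with a median level over 9 markers of 9.09 and 8.73 in TG AP20187, 9.25 and 9.13 in TG vehicle, 9.41 and 9.20 in WT, 0.80 and 0.96 in C2C12 AP20187 and 2.68 and 2.67 in C2C12 vehicle. Levels here are log2 of the spot intensity minus the 75th percentile of log2 intensities on the same array, so that a level of 7 means a signal 7 log2 units above that percentile. A change is a difference of such levels in log2 units with its limma standard error, and it was called at an adjusted p under 0.05 over all genes tested.

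OXPHOS subunit transcripts were among the brightest on the muscle arrays: 77 of the 83 tested members lay in the top decile of genes by mean level in muscle. The median level over members was 7.33 and 7.34 in TG AP20187, 7.59 and 7.86 in TG vehicle, 7.38 and 7.46 in WT, 5.24 and 5.45 in C2C12 AP20187 and 5.82 and 5.79 in C2C12 vehicle. TG vehicle was the highest of the muscle groups, with replicate 2 above replicate 1, and the C2C12 groups lay below every muscle array. On the C2C12 AP20187 arrays 24 and 15 of the 85 members had no value, since outlier flags of the scanner software fell on their spots, against 1 on each C2C12 vehicle array and 0 on every muscle array. With flagged spots kept, the C2C12 medians were 5.58 and 5.68 after AP20187 and 5.80 and 5.82 after vehicle. Cox7b2 and Cox8c, isoforms known from testis, were not well above background on any array and were not tested.

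**Figure D1:**
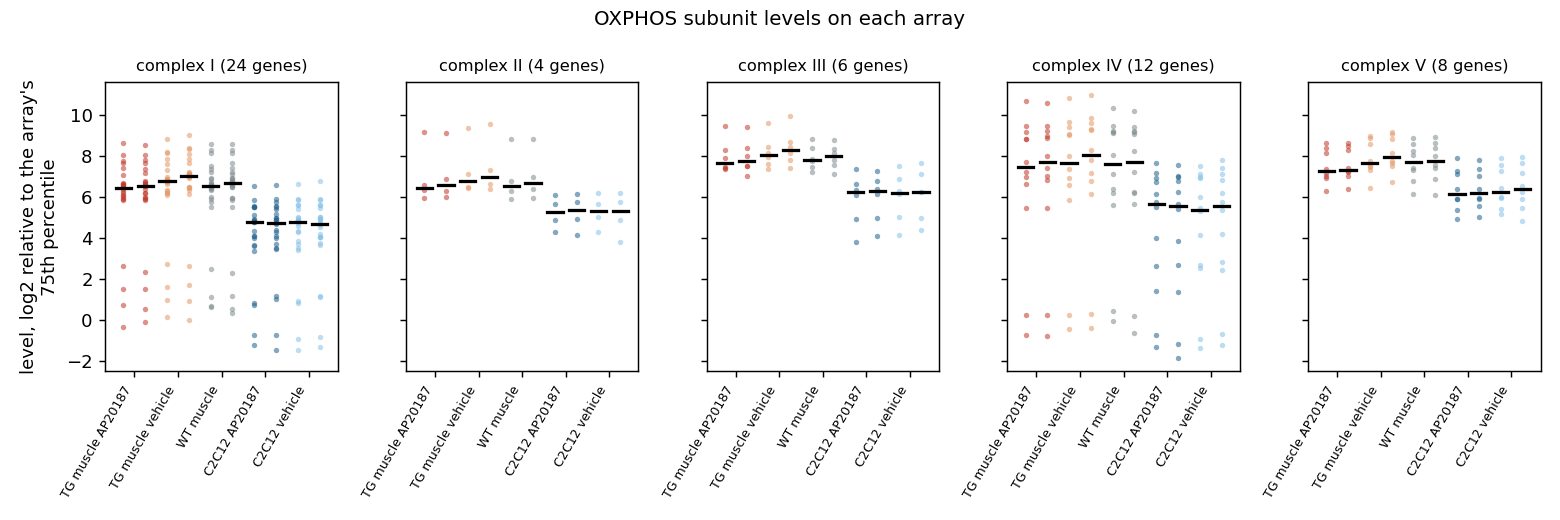
Level of each OXPHOS subunit gene that has a value on all 10 arrays, as log2 intensity above the array's 75th percentile, with 1 panel per complex and 2 columns of points per group (replicates 1 and 2). Black bars mark the median of a column; in complex I it is 6.43 and 6.53 in TG AP20187, 6.77 and 7.02 in TG vehicle and 6.53 and 6.64 in WT muscle, and in C2C12 it lies between 4.68 and 4.77.

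The first comparison asks how subunit transcripts stood in TG muscle 12 h after AP20187. In these 5 groups no mice or cells without Fv2E-PERK received AP20187, so that PERK activation and other effects of AP20187 cannot be told apart. In TG muscle, 38 of 83 members were lower after AP20187 than after vehicle and 0 were higher by limma, while 15% of all 13543 genes tested were lower and 14.3% higher. The median change of the members was -0.33, against -0.11 over all genes tested, and 80 of the 83 changes lay below 0. The calls were spread over all complexes: 17 of 38 in complex I, 2 of 4 in complex II, 4 of 9 in complex III, 5 of 16 in complex IV and 10 of 16 in complex V. The drops were modest in size, with the largest at 1.72-fold. In bulk tissue, less RNA per cell and fewer cells of a type cannot be told apart.

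In complex I the largest change was in Ndufb3, an accessory subunit of the membrane arm. It read 6.02 and 6.17 in TG AP20187, 6.71 and 7.05 in TG vehicle and 6.63 and 6.78 in WT. Both AP20187 arrays were below every other muscle array, and the change from vehicle was -0.78 (SE 0.13, adjusted p = 0.0055 by limma), or 1.72-fold lower. Ndufa5, an accessory subunit of the peripheral arm, had levels of 6.28 and 6.40 after AP20187, against 6.77 and 6.97 after vehicle, a change of -0.53 (SE 0.11, adjusted p = 0.0114). The membrane arm subunits Ndufc2 and Ndufb7 fell by 0.48 and 0.45 (adjusted p = 0.0115 and 0.014). Among the 7 nuclear-encoded core subunits, which carry the flavin and iron-sulfur clusters or line the path to coenzyme Q, 2 were lower (Ndufs3 at -0.32 and Ndufs8 at -0.34), whereas 15 of the 31 other complex I members were. Ndufs1, at 0.05, did not pass. This division into core and other subunits was made after the values were seen, and the difference between the counts was not tested.

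In complex II the membrane anchor subunits Sdhc and Sdhd fell. Sdhc read 5.95 and 5.97 after AP20187, against 6.41 and 6.63 after vehicle (change -0.56, SE 0.10, adjusted p = 0.00669), and Sdhd 6.57 and 6.84, against 7.13 and 7.29 (change -0.51, SE 0.12, adjusted p = 0.0213). The groups did not overlap for either gene. The catalytic subunits did not pass: Sdhb, the iron-sulfur protein, changed by -0.32 (SE 0.11, adjusted p = 0.0529) and Sdha, the flavoprotein, by -0.12 (SE 0.09, adjusted p = 0.304).

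Complex III had the second largest drop of all members, in Uqcrh, the hinge protein beside cytochrome c1. Its levels were 6.84 and 6.99 in TG AP20187, 7.52 and 7.73 in TG vehicle and 7.58 and 7.69 in WT. AP20187 arrays thus lay below both other muscle groups, which overlapped each other, and the change from vehicle was -0.71 (SE 0.11, adjusted p = 0.00406). Uqcrb, a small subunit near the quinone site, fell by 0.57 (adjusted p = 0.0135), Uqcr11 by 0.36 (adjusted p = 0.0445) and Cyc1, the cytochrome c1 subunit, by 0.31 (adjusted p = 0.0458). The core proteins Uqcrc1 and Uqcrc2 (-0.21 and -0.19) and the Rieske protein Uqcrfs1 (-0.26) did not pass.

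In complex V the proteolipid gene Atp5g3, one of the genes for the rotating c ring, read 8.38 and 8.45 after AP20187, against 8.96 and 9.16 after vehicle. The arrays of the groups were well apart, with a change of -0.65 (SE 0.10, adjusted p = 0.00427). Atp5k (subunit e), Atp5j (coupling factor 6) and Atp5l (subunit g) fell by 0.56, 0.51 and 0.49 (adjusted p = 0.0144, 0.0174 and 0.0178), and Atp5g2, another c ring gene, by 0.33 (adjusted p = 0.0349). Of the subunits of the catalytic head, Atp5a1 was lower at -0.30 (adjusted p = 0.0433), while Atp5b (-0.20) did not pass. Atp5c1 (-0.25) did not pass either.

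Complex IV had the smallest share of calls. Cox7a2 was lower by 0.54 (SE 0.13, adjusted p = 0.0195), Cox6b1, which faces the intermembrane space, by 0.53 (SE 0.12, adjusted p = 0.0145), the muscle isoform Cox8b by 0.33 (SE 0.10, adjusted p = 0.0392), Cox5b by 0.36 (adjusted p = 0.0427) and Cox4i1, the common form of subunit 4, by 0.32 (adjusted p = 0.0466). The other muscle isoforms, Cox6a2 and Cox7a1, both stood at -0.27 and did not pass (adjusted p = 0.0852 and 0.111). The paralogs Cox6a1 (0.17), Cox8a (-0.02) and the related Cox7a2l (0.04), which takes part in supercomplexes, did not pass either. Cox4i2, a form known from lung and low oxygen, was dim at 0.22 and 0.23 after AP20187, against 0.25 and 0.27 after vehicle.

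Several measurements moved with this result. Bright genes in general were lower after AP20187: the top decile of genes by level had a median of -0.24, with 29.6% called lower, while the 77 members in that decile had a median of -0.33. After quantile normalization the members' median was -0.09, with 8 lower and 3 higher, and Cox6a1 and Cox7a2l were among the higher at 0.41 and 0.26. The count also rested on single arrays, being 5 without vehicle replicate 2, 4 without AP20187 replicate 1, 16 without AP20187 replicate 2 and 56 without vehicle replicate 1, with every one of these calls lower. Ndufb3, Uqcrh, Sdhc and Atp5g3 were called lower in all 14 alternatives. Macrophage markers were lower in 8 of 9 (0 higher), with medians of 0.18 and 0.59 after AP20187, against 1.31 and 1.49 after vehicle. Adipocyte markers had medians of 1.66 and 2.94 after AP20187, against 2.73 and 3.44 after vehicle (0 of 7 called). Fast fibre genes were lower in 4 of 13 and slow fibre genes in 2 of 10, beside 15% of all genes tested and 29.6% of the top decile by level. The part of these cell type genes in the subunit changes was not tested.

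**Figure D2:**
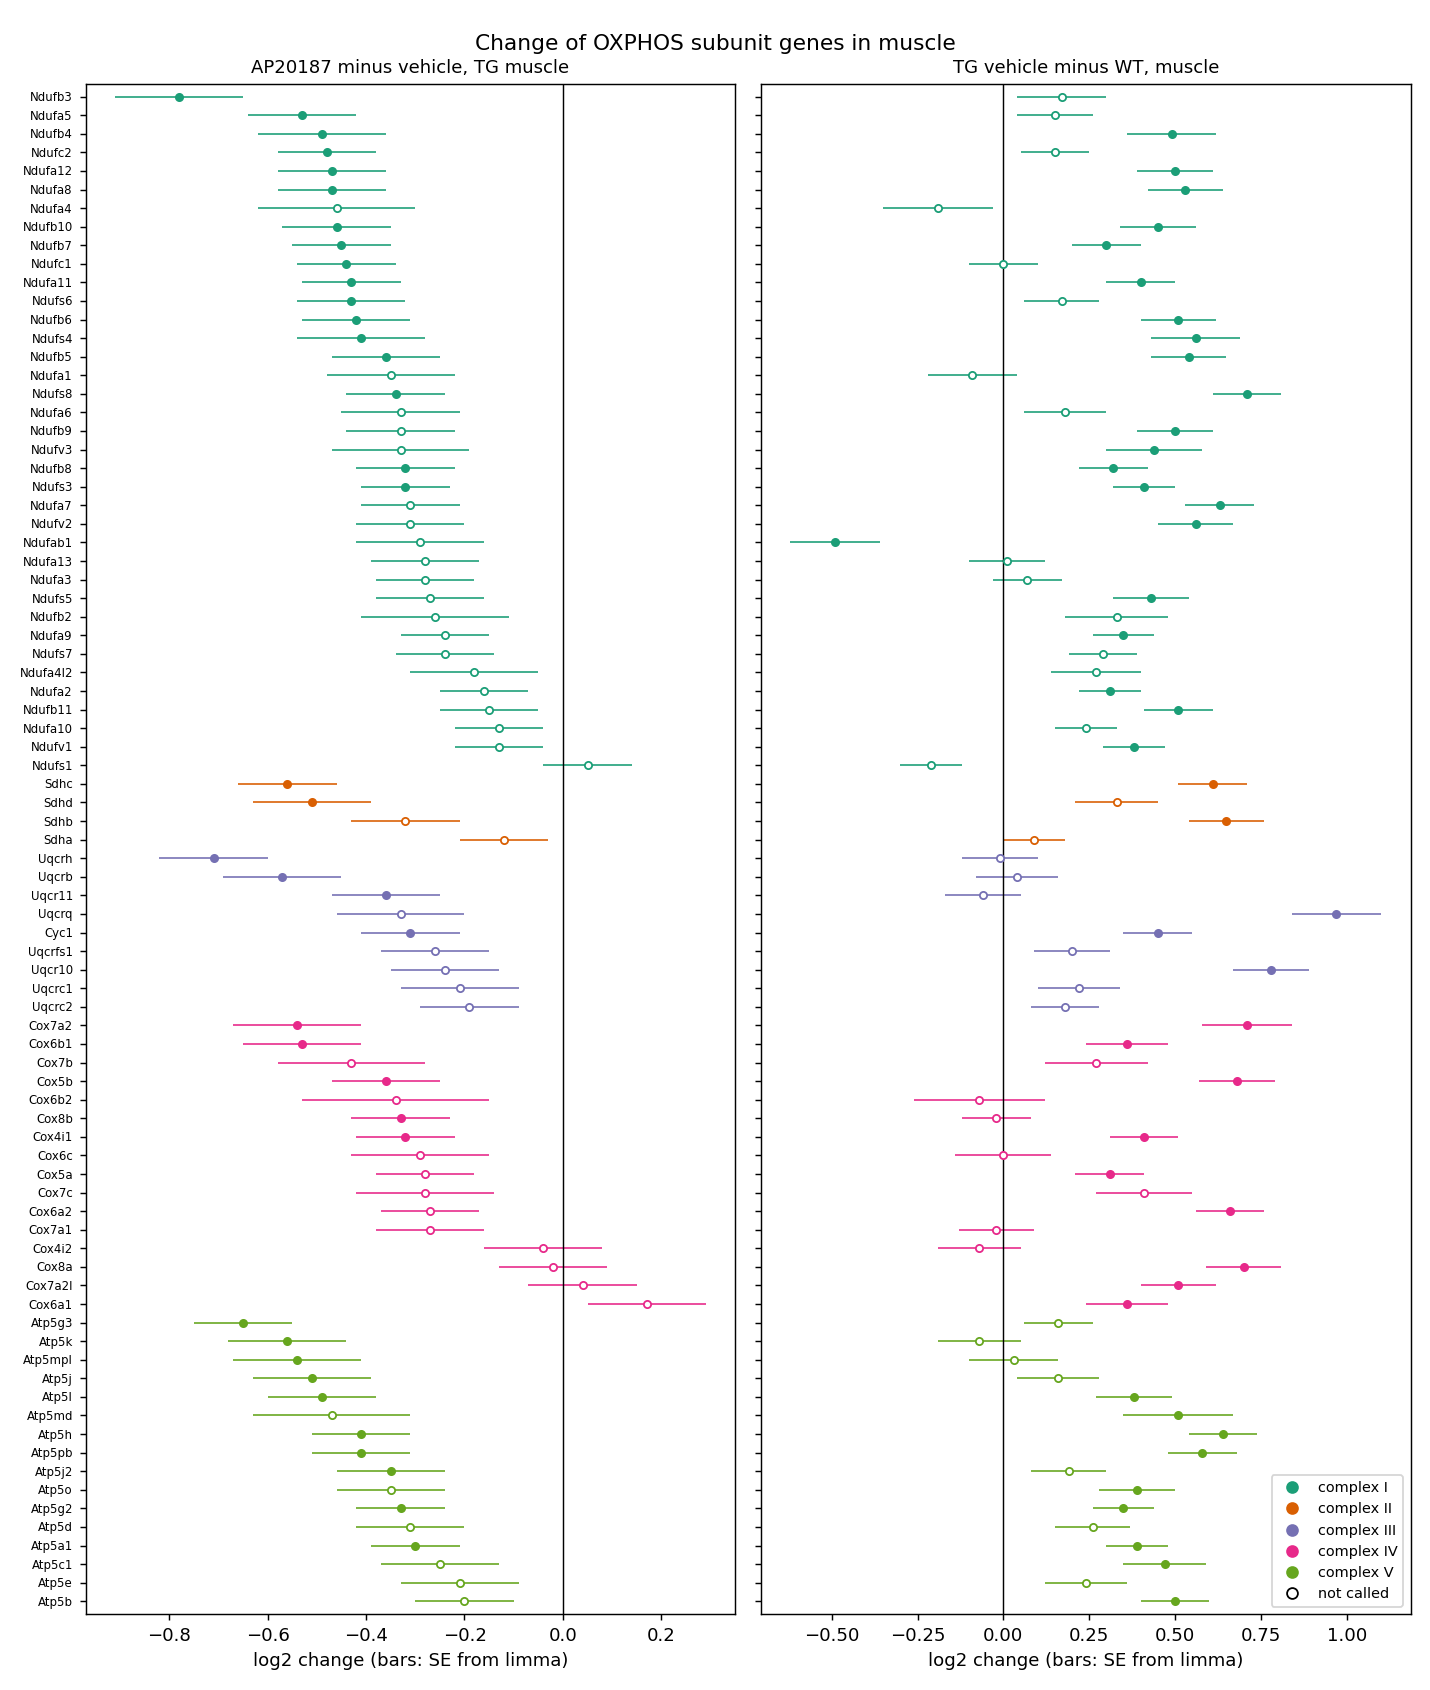
Log2 change of 82 of the 83 tested OXPHOS subunit genes, grouped by complex, for AP20187 minus vehicle in TG muscle (left) and TG vehicle minus WT muscle (right). Bars are standard errors from limma and filled points were called; nearly all points lie left of 0 in the left panel, and most lie right of 0 in the right panel, a direction that turned to the left for most members after quantile normalization.

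The second comparison asks how TG muscle stood without AP20187. Under vehicle, 44 of 83 members were higher than in untreated WT muscle and 1 was lower, while 25.7% of all genes tested were higher and 12.6% lower. The median change of members was 0.33, against 0.09 over all genes, but after quantile normalization it was -0.14, with 8 members higher and 30 lower. The direction for the whole group so depended on the scaling. Genes in the top decile by level had a median of 0.31, against 0.35 for the 77 members among them. In that decile 47.5% of all genes were called higher and 9.89% lower, so that the members' count lay near the share of bright genes. The scan session and the injection separate these groups as well and cannot be told apart from the transgene.

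Members differed in how far they stood from the median. Uqcrq, a small complex III subunit that binds ubiquinone, read 9.57 and 9.93 in TG vehicle, against 8.79 and 8.77 in WT, a change of 0.97 (SE 0.13, adjusted p = 0.0011). Uqcr10 differed by 0.78 (SE 0.11, adjusted p = 0.00158) and Ndufs8, an iron-sulfur core subunit of complex I, by 0.71 (SE 0.10, adjusted p = 0.00173). Cox8a read 6.89 and 7.14 in TG vehicle, against 6.38 and 6.24 in WT (change 0.70, SE 0.11, adjusted p = 0.00241), and Cox7a2 differed by 0.71 (adjusted p = 0.00458). The muscle isoforms did not move together: Cox6a2 was higher by 0.66 (SE 0.10, adjusted p = 0.00242), whereas Cox7a1 and Cox8b both stood at -0.02 and did not pass. After quantile normalization Cox7a1 and Cox8b were called lower, at -0.32 and -0.33 (adjusted p = 0.0228 and 0.00578 by limma). Sdhb and Sdhc were higher by 0.65 and 0.61 (adjusted p = 0.00275 and 0.00279), although the brighter probe of Sdhc gave 0.10 (adjusted p = 0.471), and in complex V Atp5h, Atp5pb and Atp5b by 0.64, 0.58 and 0.50. Uqcrq, Ndufs8, Cox8a, Cox6a2, Sdhb and Ndufb11 were higher in all 14 alternatives, quantile normalization included. Ndufb11 was read there from a dim probe (mean level 0.54). Its bright probe (mean level 8.08), which lacks a value on 2 arrays, gave 0.47 and was not tried with quantile normalization. Ndufab1, the mitochondrial acyl carrier protein that is also a complex I subunit, was the lower gene at -0.49 (adjusted p = 0.0201), from a dim probe that read 0.14 and 0.02 in TG vehicle, against 0.61 and 0.54 in WT.

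**Figure D3:**
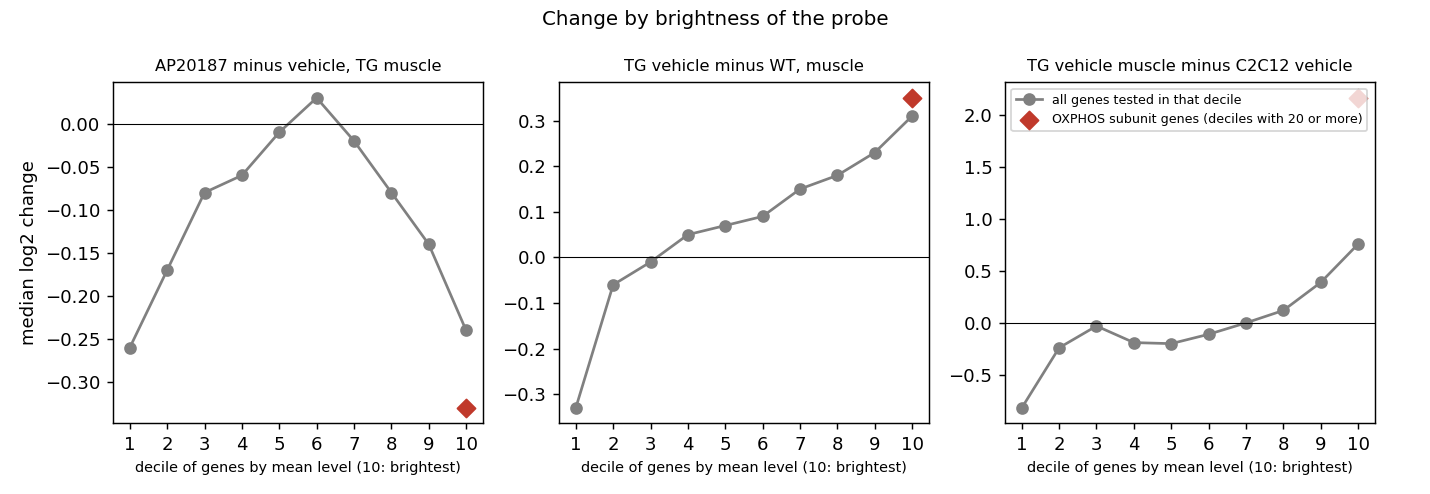
Median log2 change of all genes tested (grey circles) in each decile of genes by mean level, and of the 77 OXPHOS subunit genes in the brightest decile (red diamonds), for AP20187 minus vehicle in TG muscle, TG vehicle minus WT muscle, and TG vehicle muscle minus C2C12 vehicle. In the brightest decile the members and all genes stand at -0.33 and -0.24 in the first panel, 0.35 and 0.31 in the second, and 2.17 and 0.76 in the third; after quantile normalization the members' median in the second comparison was -0.14 over all 83, and panels have different y axes.

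AP20187 muscle was also set against WT muscle, which shares its AP20187 arrays with the first comparison and its WT arrays with the second. These groups differ by transgene, injection, AP20187 and scan session, which cannot be told apart here. Of 83 members 12 were higher and 15 lower, against 29.6% higher and 22.6% lower over all genes tested, with a median of 0.02 (0.04 over all genes). After quantile normalization 9 were higher and 41 lower. Members that lay below WT by limma included Uqcrh (-0.72, SE 0.11, adjusted p = 0.00122), Atp5k (-0.63, SE 0.12, adjusted p = 0.0039), Ndufb3 (-0.61, SE 0.13, adjusted p = 0.00594), Uqcrb (-0.53, adjusted p = 0.00834) and Atp5g3 (-0.49, adjusted p = 0.00521). For these genes TG vehicle had differed from WT by -0.01, -0.07, 0.17, 0.04 and 0.16, and none of those differences passed. After quantile normalization the same differences were -0.58, -0.63, -0.32, -0.54 and -0.24, all called lower. Ndufab1 stood lowest, at -0.78 (adjusted p = 0.00185), from its dim probe (mean level 0.49). Cox8a (0.69, SE 0.11, adjusted p = 0.00159), Uqcrq (0.64), Uqcr10 (0.55), Cox7a2l (0.55) and Cox6a1 (0.53) were above WT. Sdhc, at 0.05 here, was at -0.44 by its other probe, which is the brighter of its 2 probes and lacks a value on 1 array. Macrophage markers were lower in 9 of 9 in TG AP20187 muscle than in WT, fibroblast markers lower in 5 of 8 and fast fibre markers lower in 6 of 13, while slow fibre markers were higher in 6 and lower in 1 of 10. Their part in the subunit changes was not tested.

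In C2C12 cells AP20187 was compared with vehicle. Of 71 members tested, 1 was lower and 0 were higher by limma, against 0.166% lower and 0.315% higher over 11420 genes, and the median was -0.07 (-0.06 over all genes). The lower gene was Cox7a1, which read 1.42 and 1.35 after AP20187, against 2.53 and 2.42 after vehicle. Its groups lay about 1 log2 unit apart, with a change of -1.09 (SE 0.12, adjusted p = 0.00158), or 2.12-fold lower, and it missed the threshold without vehicle replicate 2 and in the deposited log2 values. The other muscle isoforms did not pass, with Cox6a2 at 5.74 and 5.65 after AP20187, against 5.30 and 5.36 after vehicle (change 0.36, SE 0.12, adjusted p = 0.216), and Cox8b at 2.61 and 2.66, against 2.70 and 2.81 (change -0.13, SE 0.12, adjusted p = 0.677). With flagged spots kept 83 members were tested, with the same count of 1 lower and a median of -0.10. Quantile normalization gave 62 members higher and 1 lower, at a median of 0.84, when the median of all genes was 0.34. Fast fibre markers were lower in 4 of 12 and adipocyte markers higher in 4 of 6, and their part in the Cox7a1 change was not tested.

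The response to AP20187 in muscle was then set against that in C2C12. By limma 1 of 72 members had the more positive change in muscle and 5 the more negative one, beside 7.98% and 4.01% of 14105 genes. Cox7a1 was the member with the more positive change, by 0.82 (SE 0.15, adjusted p = 0.00845), since it changed by -0.27 in muscle and -1.09 in C2C12. The 5 with the more negative change in muscle were Sdhc, Uqcrb, Ndufb3, Cox6a2 and Ndufa5, at differences of -0.73 to -0.61. With the brighter probe Sdhc gave -0.33 and Ndufa5 -0.50, and neither passed (adjusted p = 0.231 and 0.0983 by limma). Cox7a1 alone was called in all 18 alternatives, and without vehicle replicate 2 of the muscle it was the single call.

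The widest gaps lay between tissue and cell line. In TG vehicle muscle 79 of 83 members were higher than in C2C12 vehicle and 3 were lower, against 40.2% higher and 38.5% lower of 14292 genes, with a median of 2.13 (0.04 over all genes). In the top decile by level the members had a median of 2.17, against 0.76 for all its genes, which were not matched to the members in level. After quantile normalization the median over all tested members was 1.57. With WT muscle as the tissue 78 were higher and 4 lower, at a median of 1.74. The medians by complex were 2.30 for complex I, 2.00 for complex II, 2.21 for complex III, 1.75 for complex IV and 1.64 for complex V. Typical values were those of Atp5b, the catalytic beta subunit, which read 9.82 and 9.95 in muscle, against 8.04 and 8.10 in C2C12 (change 1.81), and of Cox4i1, at 9.40 and 9.58, against 7.12 and 7.40 (change 2.23). Sdhb at 3.26 and Uqcrc1 at 3.14 had the widest gaps outside the isoforms in complexes II and III, and Uqcrh had the narrowest in complex III, at 0.97. Session and tissue cannot be told apart here.

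The widest gaps of all were those of the muscle isoforms of complex IV. Cox7a1 read 9.01 and 9.28 in TG vehicle muscle, against 2.53 and 2.42 in C2C12 vehicle, a change of 6.68 (SE 0.11, adjusted p = 3.74e-12) or 102-fold. For Cox8b the levels were 9.06 and 9.23, against 2.70 and 2.81 (change 6.38, 83.5-fold), and for Cox6a2 they were 10.83 and 10.93, against 5.30 and 5.36 (change 5.55, 46.9-fold). Ndufa4l2, a relative of Ndufa4 induced by low oxygen, was higher by 4.07 (16.8-fold). The 3 lower members were Cox6a1 (6.88 and 7.12 in muscle, against 8.45 and 8.64 in C2C12; change -1.55), Cox8a (6.89 and 7.14, against 7.5 and 7.81; change -0.64) and Ndufab1 (-0.95). The value of Ndufab1 came from a dim probe (mean level 0.49). Cox7a2 differed from the paralogs Cox6a1 and Cox8a in direction, being higher in muscle by 1.58. Ndufv3 did not pass at -0.02 with a dim probe, and its bright probe, which lacks a value on 2 arrays, gave 1.5.

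**Figure D4:**
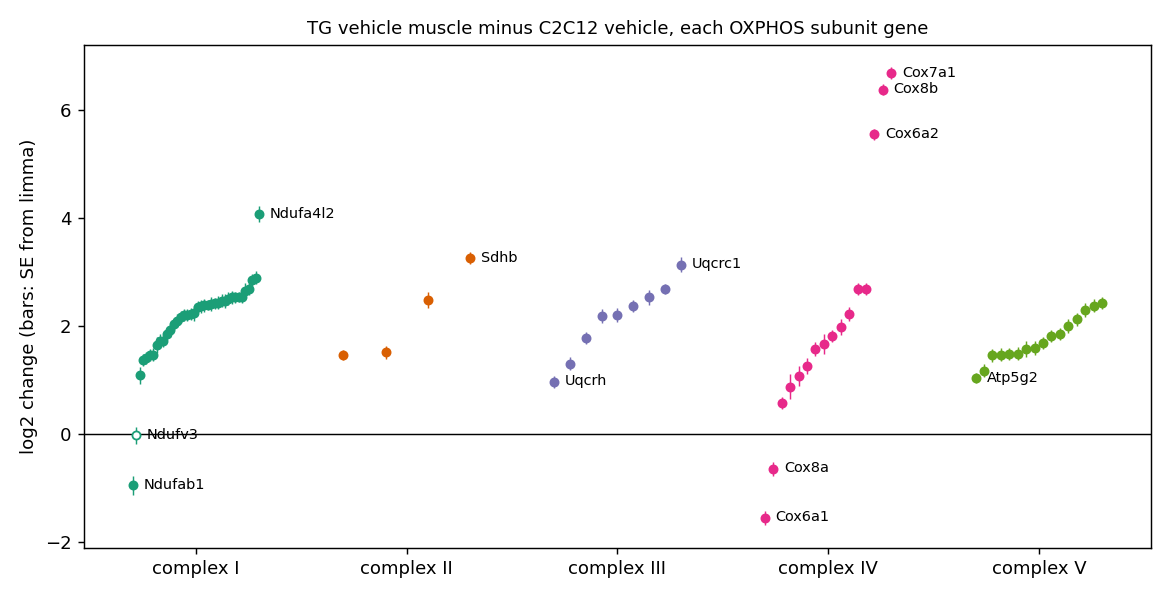
Log2 change of each tested OXPHOS subunit gene between TG vehicle muscle and C2C12 vehicle (positive: higher in muscle), by complex and sorted within it, with limma standard errors; the open point was not called. Cox7a1, Cox8b and Cox6a2 stand at 6.68, 6.38 and 5.55, above the other members, while Cox6a1, Cox8a and Ndufab1 lie below 0.

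The balance between a muscle isoform and its paralog was followed as the log2 ratio of their probes on each array. Probes differ in efficiency, so that only differences of this ratio between arrays can be read. Cox8b over Cox8a was 1.81 and 1.82 in TG AP20187, 2.17 and 2.09 in TG vehicle, 2.80 and 2.91 in WT, -5.02 and -4.89 in C2C12 AP20187 and -4.80 and -4.99 in C2C12 vehicle. The 6 muscle arrays lay above the 4 C2C12 arrays by 7.19 log2 units on average, or 146-fold (two-sided exact permutation p = 0.00476, adjusted p = 0.0143 over the 3 pairs). Cox6a2 over Cox6a1 differed by 6.62 (98.2-fold, 6 against 3 arrays, exact p = 0.0119, adjusted p = 0.0179) and Cox7a1 over Cox7a2 by 5.43 (43.1-fold, 6 against 2 arrays, exact p = 0.0357, adjusted p = 0.0357). Each p is the smallest these numbers of arrays allow. For Cox7a1 over Cox7a2 both C2C12 arrays were vehicle arrays. The test took muscle arrays as 1 set and C2C12 arrays as another, whatever their genotype and treatment, and session and tissue cannot be told apart. With flagged spots kept, all 10 arrays gave a ratio for every pair, and the differences were 6.53 for Cox6a2 and 5.94 for Cox7a1.

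Within muscle the 3 ratios were ordered differently. Cox8b over Cox8a was lower by 0.31 in TG AP20187 than in TG vehicle and by 0.73 in TG vehicle than in WT, with no overlap between the groups. Cox7a1 over Cox7a2 was 2.05 and 2.07 in TG AP20187, 1.85 and 1.73 in TG vehicle and 2.48 and 2.56 in WT, so that TG vehicle was lowest. Cox6a2 over Cox6a1 was 3.60 and 3.29 in TG AP20187, 3.96 and 3.81 in TG vehicle and 3.62 and 3.55 in WT, with AP20187 and WT overlapping. With 2 arrays a group, an exact permutation test cannot give a p below 0.333, and no other test of these differences was run.

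**Figure D5:**
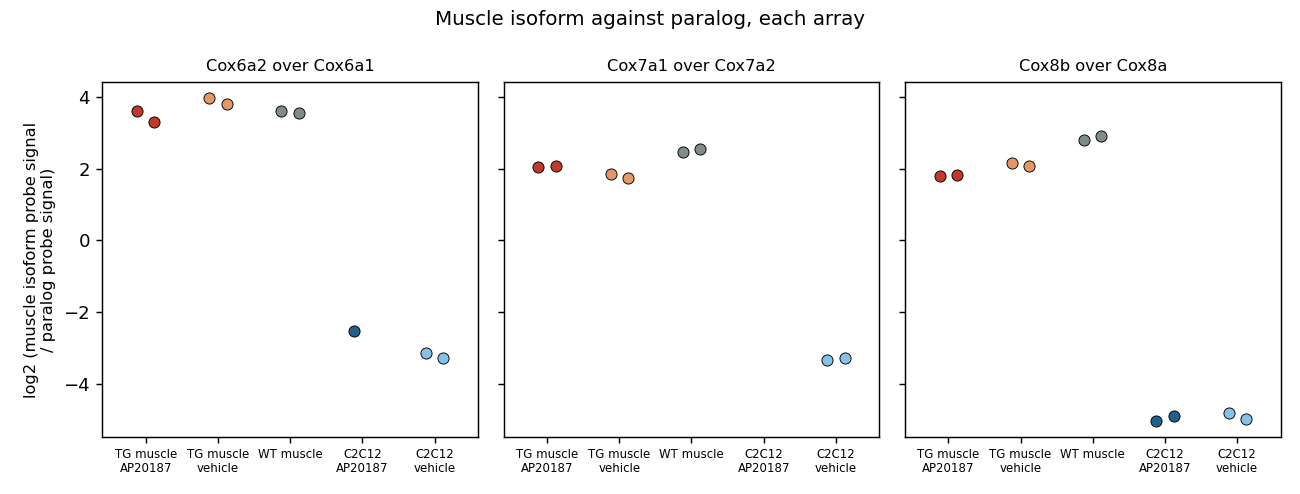
Log2 ratio of the muscle isoform's probe signal to its paralog's on each array, for 3 complex IV subunits; each point is 1 array and the groups run from TG AP20187 muscle to C2C12 vehicle. Ratios lie between 1.73 and 3.96 in muscle and between -5.02 and -2.51 in C2C12; no point is drawn where a spot was flagged.

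Promoter sequences are shown for 2 of the isoform pairs just described, and for Cox6a1 of the other, so that the muscle and the widely expressed forms can be read beside each other. They run from 250 bases before to 50 bases after the RefSeq start, on the gene's strand in GRCm38.p6: Cox7a1 at chr7:30183921-30184220 (+), Cox7a2 at chr9:79759804-79760103 (-), Cox8b at chr7:140900397-140900696 (-) and Cox8a at chr19:7217567-7217866 (-), with Cox6a1 at chr5:115348909-115349208 (-). Capitals mark matches on either strand to the ETS core CCGGAAG, the NRF1 core GCGCATGCG, the YY1 core AAGATGGC, the ERR half-site CAAGGTCA, the E-box CANNTG and the MEF2 consensus.
Cox7a1: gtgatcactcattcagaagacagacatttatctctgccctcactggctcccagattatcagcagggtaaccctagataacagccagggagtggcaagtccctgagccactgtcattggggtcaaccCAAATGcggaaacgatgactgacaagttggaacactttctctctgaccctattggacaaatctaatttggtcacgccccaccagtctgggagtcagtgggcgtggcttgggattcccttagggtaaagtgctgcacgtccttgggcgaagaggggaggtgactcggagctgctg
Cox8b: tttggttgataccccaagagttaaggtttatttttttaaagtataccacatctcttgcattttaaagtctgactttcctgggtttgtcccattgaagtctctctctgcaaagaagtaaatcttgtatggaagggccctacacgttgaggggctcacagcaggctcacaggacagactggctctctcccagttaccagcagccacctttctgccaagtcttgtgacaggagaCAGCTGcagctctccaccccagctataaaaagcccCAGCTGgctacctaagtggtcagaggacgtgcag
Cox7a2: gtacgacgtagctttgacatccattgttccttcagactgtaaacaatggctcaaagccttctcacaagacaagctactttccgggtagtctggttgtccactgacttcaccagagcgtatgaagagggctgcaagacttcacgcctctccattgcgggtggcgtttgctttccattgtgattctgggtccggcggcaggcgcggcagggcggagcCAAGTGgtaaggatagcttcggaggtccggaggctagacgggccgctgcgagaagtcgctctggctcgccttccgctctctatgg
Cox8a: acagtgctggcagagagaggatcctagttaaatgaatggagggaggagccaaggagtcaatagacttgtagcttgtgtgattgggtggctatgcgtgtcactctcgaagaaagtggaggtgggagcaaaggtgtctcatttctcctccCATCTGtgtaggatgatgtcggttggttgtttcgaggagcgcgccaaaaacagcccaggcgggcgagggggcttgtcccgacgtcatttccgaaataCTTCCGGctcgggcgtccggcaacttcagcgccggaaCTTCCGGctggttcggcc
Cox6a1: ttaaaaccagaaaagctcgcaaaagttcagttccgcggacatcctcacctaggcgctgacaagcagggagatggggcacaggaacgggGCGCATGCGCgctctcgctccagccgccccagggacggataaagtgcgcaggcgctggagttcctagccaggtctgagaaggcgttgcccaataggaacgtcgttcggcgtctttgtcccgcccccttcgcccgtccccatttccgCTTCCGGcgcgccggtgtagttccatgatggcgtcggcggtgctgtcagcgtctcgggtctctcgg

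Cox8a held 2 ETS cores, at 5 bases before and 32 bases after the start, and an E-box 102 bases before the start. Cox6a1 held 1 ETS core 16 bases before the start and overlapping NRF1 cores on both strands. Cox7a1, Cox8b and Cox7a2 held E-boxes alone, 2 of them in Cox8b. Of the 85 members 68 had an entry in the RefSeq promoter table, with 73 promoters of 300 bases. Of those 23.3% held the ETS core, against 8.86% of all 32851 promoters in the table, 11% the NRF1 core (1.75%), 13.7% the YY1 core (2.75%) and 5.48% the ERR half-site (1.56%). The E-box was in 67.1% of member promoters and 72.3% of all, and the MEF2 consensus in 0 of 73, against 3.19% of all. Median GC content was 57.7% in member promoters and 52.7% in all, and a match describes these letters only.

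Other genes of mitochondrial energy metabolism were counted in the same fits. After AP20187 in TG muscle, where 15% of all genes were lower and 14.3% higher at a median of -0.11, assembly factors of the complexes were lower in 7 and higher in 1 of 42 (median -0.20), citrate and pyruvate oxidation genes lower in 3 of 18 (median -0.16), and electron carriers with coenzyme Q synthesis genes lower in 3 of 14 (median -0.17), Cycs, which encodes cytochrome c, among them at -0.45 (adjusted p = 0.028). The citrate synthase gene Cs stood at -0.12 and did not pass. The shares of assembly factors and of citrate and pyruvate oxidation genes called lower were near that of all genes. Of the regulators of mitochondrial biogenesis 7 were higher and 1 lower of 20, with a median of 0.29. Their median level lay between 1.46 and 2.22 on the muscle arrays. Deciles 6 and 7 of genes by level, which start at 0.77 and 1.58, had 24.1% and 22.7% called higher. Nrf1, a transcription factor for respiratory genes, read 1.01 and 1.05 after AP20187, against 0.18 and 0.12 after vehicle (change 0.88, SE 0.11, adjusted p = 0.00195), and Esrrg, an orphan nuclear receptor, was higher by 0.92. The coactivator genes Ppargc1a (-0.06) and Ppargc1b (-0.12), Esrra (-0.30, adjusted p = 0.0555) and Tfam (0.09), which packages and transcribes mitochondrial DNA, did not pass. Quantile normalization moved the subunit median in this comparison from -0.33 to -0.09. Whether the values of these related lists also depend on the scaling was not tested.

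In TG vehicle against WT muscle, where 25.7% of all genes were higher and 12.6% lower at a median of 0.09, assembly factors were higher in 25 and lower in 1 of 42 (median 0.46), carriers and coenzyme Q genes higher in 11 of 14 (median 0.45) and slow fibre markers higher in 7 and lower in 1 of 10 (median 0.71). Fast fibre markers were higher in 2 and lower in 4 of 13, and adipocyte markers higher in 2 of 7. Citrate and pyruvate oxidation genes were higher in 5 and lower in 1 of 18, near the share of all genes. Of the regulators Esrra and Tfam were higher by 0.40 and 0.41 (adjusted p = 0.0151 and 0.029). All these values are without quantile normalization, which moved the median of the subunit members in this comparison from 0.33 to -0.14. Whether the direction of the related lists, Esrra and Tfam also depends on the scaling was not tested. Scan session and injection cannot be told apart from the transgene for these genes either. In TG vehicle muscle against C2C12 vehicle, where 40.2% of all genes were higher, all 18 citrate and pyruvate oxidation genes were higher (median 2.30), as were 36 of 42 assembly factors and 15 of 20 regulators. Ppargc1a, which drives mitochondrial biogenesis, was higher in muscle by 3.90 (SE 0.14, adjusted p = 9.68e-10), while Nrf1 was lower by 0.39 (adjusted p = 0.0193).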

How the data were processed

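RNA from 10 samples was labelled with Cy3 and hybridised to single-colour Agilent mouse arrays. The authors deposited a scanner file per array, whose processed spot intensity has had background removed, per the file headers, in Agilent Feature Extraction (version 10.7.1.1). They also deposited a table of log2 values of the same arrays. Array-to-array differences in that table followed the scanner values (correlation 0.9999 or more), so that scale and direction are known and the centring is not. Its column medians were -0.37 and -0.58 in TG AP20187, -0.42 and -0.35 in TG vehicle, -0.46 and -0.45 in WT, 0.80 and 0.78 in C2C12 AP20187 and 0.34 and 0.70 in C2C12 vehicle.

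Of 62976 spots, 3671 were controls. Spots with a non-uniformity or population outlier flag were left out (0.160% to 2.37% of gene spots per array), no gene spot was saturated, and spots of a probe were averaged. Values are log2 intensity minus the 75th percentile of gene spots on that array. RefSeq accessions were named through a GRCm38.p6 table, which gave 26056 probes a symbol and 29625 none. Each gene was represented by the probe with the fewest missing arrays and then the brightest, and 22 members had several probes. A gene was tested if well above background on both arrays of a group in the fit. The number of arrays limits the precision.

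Linear models were fitted with limma 3.58.1 under R 4.3.3 (moderated with a variance trend), with Benjamini-Hochberg adjustment over all genes tested. The 6 muscle arrays formed 1 fit (3 residual degrees of freedom), the 4 C2C12 arrays another (2), and all 10 arrays the fit for muscle against C2C12 and for the difference of responses (5). The fits were tested on simulated data. Isoform ratios were tested by exact permutation. Named are the 4 called members with the smallest p in each complex, isoform and complex II genes whatever their test, and the top genes of related lists, and others were chosen after their values were seen. Members, lists and tests were chosen with earlier results of these data known, and E-box and MEF2 motifs were added later. Alternatives were quantile normalization, normexp background (on median instead of mean signals, which the files lack), the percentile over detected probes, no filter, the mean over probes, flagged spots kept, the deposited values, only the groups compared, a replicate block, each array left out, WT muscle as the tissue and, chosen after seeing the data, the brightest probe whatever its missing values. Samples with the same replicate number did not deviate together, with correlations between -0.08 and 0.08. A result that needs a withheld item is not reported here.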

Additional observations from a re-analysis of the deposited data

Results flagged for a closer look

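For 6 of 72 members the response to AP20187 in muscle differed from that in C2C12 cells by the limma test of the difference over all 10 arrays. The change in muscle was the more positive in 1 and the more negative in 5, against 7.98% and 4.01% of all 14105 genes tested. Cox7a1 had a difference of 0.82 (muscle minus C2C12), from a change of -0.27 in muscle and -1.09 in C2C12. Sdhc differed by -0.73, from -0.56 in muscle and 0.17 in C2C12, but its brighter probe gave -0.33, from -0.54 and -0.21, which did not pass. Uqcrb differed by -0.67, from -0.57 and 0.10. Ndufb3 had a difference of -0.65, from -0.78 and -0.13, Cox6a2 of -0.63, from -0.27 and 0.36, and Ndufa5 of -0.61, from -0.53 and 0.08, or -0.50 by its brighter probe, which did not pass. The call was kept in all 18 alternatives for Cox7a1, in 11 each for Uqcrb and Cox6a2, in 9 for Ndufa5, in 8 for Ndufb3 and in 7 for Sdhc. Tissue and scan session cannot be told apart in these differences, while each response was measured within a session.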

How the results depend on the processing

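For AP20187 in TG muscle the count of called members (38) was 11 after quantile normalization, 16 with no filter, 7 in the deposited values, 25 with the groups compared only, and 4 to 56 with an array left out. For TG vehicle against WT the count (45) was 27 with the percentile over detected probes, 29 with no filter and 18 to 48 with an array left out. There quantile normalization gave 8 members higher and 30 lower. Reversals were marked only among the genes named by rule, here Sdha (-0.36), Cyc1 (-0.14), Cox6a1 (-0.14), Atp5a1 (-0.11) and Ndufv2 (-0.03). Other members turned below 0 as well, among them Uqcrb (-0.54) and Atp5g3 (-0.24). For AP20187 muscle against WT (27) it was 50 after quantile normalization and 11 to 19 with an array left out, and Sdhc turned to -0.44 with its brightest probe, an alternative chosen after seeing the data. For C2C12 (1) it was 63 after quantile normalization, 2 with normexp, 3 with the mean over probes, 0 in the deposited values and 0 to 1 with an array left out. Quantile normalization there gave 62 members higher and 1 lower. Among the genes named by rule Cox8a (0.59), Cox8b (0.39), Cox4i1 (0.62), Ndufa4 (0.96), Sdha (0.92), Sdhb (0.95) and Sdhd (1.04) were marked as reversed. For the difference of responses (6) it was 62 after quantile normalization, 10 with the detected percentile, 3 with no filter, 1 in the deposited values and 1 to 11 with an array left out, and Cox7a2l reversed (0.51) with the mean over probes. Muscle against C2C12 (82) stayed between 81 and 83 in every alternative. The isoform ratios ranged over 6.47 to 6.85 (Cox6a2) and 5.34 to 5.51 (Cox7a1) with an array left out, and neither passed without a C2C12 vehicle array, when too few arrays remained, whereas Cox8b over Cox8a did. Replicate numbers mark no known pairing, and with the replicate block the counts were 54, 53, 31, 1, 82 and 9 in the order of the comparisons above, with muscle against C2C12 before the difference of responses. Scan session as a block could not be fitted, since each session holds groups of 1 kind, and slide was not used, since the headers give TG muscle and C2C12 arrays 1 slide number and some of the same positions. The cause of these shifts was not tested. With 2 arrays a group, members that did not pass are not shown to be equal.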

Other observations

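Pairs of relatives outside the muscle isoforms also differed in how they stood in tissue and cells. Ndufa4 read 6.62 and 7.0 in TG vehicle muscle, against 5.84 and 5.61 in C2C12 vehicle (change 1.09), and its relative Ndufa4l2 read 2.72 and 2.62, against -1.48 and -1.32 (change 4.07). Cox6b1 was higher in muscle by 1.82 and its relative Cox6b2, known from testis, by 0.88 at low levels. Cox4i1 was higher by 2.23 and Cox4i2 by 1.08.

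Of the 22 members with several probes, 1 (Cox8a) had probes of opposite sign for AP20187 against vehicle in TG muscle, with a median range of 0.07 between probes. For TG vehicle against WT they were 3 (Ndufv3, Uqcrh and Atp5k), and for muscle against C2C12 it was Ndufv3 alone. Probes disagreed in sign for 8 of 22 in AP20187 muscle against WT and for 9 of 22, Sdhc and Ndufa5 among them, in AP20187 against vehicle in C2C12.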
